A study of Mus musculus with 8 samples.

Results

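Bulge stem cells of mouse hair follicles from which Bmpr1a had been deleted were compared with control bulge stem cells, using 2 of the 8 RNA sequencing libraries of the series. Both came from mice of mixed strain at postnatal day 68 and were labelled hair follicle bulge stem cells (HFSCs). The control library was labelled K15-CrePGR;BmpR1a_Het and the deleted library K15-CrePGR;BmpR1a_cKO, and the series' design text gives the deleted genotype as Bmpr1a fl/fl. Both libraries therefore carried the Cre, which is driven by a promoter of keratin 15 and fused to a progesterone receptor fragment that needs a drug to become active. The alleles behind the label Het are not given, so it is not stated whether the control cells had lost 1 copy of the gene. The labels do not say how the cells were isolated, when Cre was activated, or how many animals went into a library. There was 1 library per genotype, so no difference below has a replicate check or a test.

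Bone morphogenetic proteins (BMPs) bind pairs of type I and type II receptors, of which Bmpr1a is a type I receptor. The active receptors phosphorylate Smad1, Smad5 and Smad9, which enter the nucleus with Smad4 and switch on genes such as those of the Id proteins. The bulge is the niche where stem cells of the follicle rest between hair cycles, and BMP signals there are known for holding these cells in quiescence. When the signal falls, stem cells divide and feed the hair germ and then the matrix, whose transit-amplifying cells (TACs) build the hair.

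Gene levels were deposited as FPKM, sequenced fragments per kilobase of transcript and relative to the size of the library. Every difference is log2((cKO + 1)/(Het + 1)), printed in parentheses after the levels. The scale understates the change of genes at low levels. Pairs of values name Het before cKO. Of 22431 gene symbols, 12205 had a mean of at least 1 FPKM and were kept. At that edge, Lyrm7 (0.680 and 1.32 FPKM) was just kept and Csf2rb (1.40 and 0.599 FPKM) just left out. Of the kept genes, 320 were under 1 FPKM in Het and 251 in cKO. These passed through the other library alone and so had to differ. Depth estimated from the steps of low values was about 55.6 M reads in Het and 47.5 M reads in cKO. At 1 FPKM, a transcript of 2000 bases then rests on about 111 and 94.97 reads, a counting error of 9.49% and 10.3% that covers counting only.

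Of the kept genes, 722 (5.92%) stood at least 2-fold above Het in cKO and 562 (4.60%) at least 2-fold below. At least 4-fold differences were found for 139 genes (1.14%) above and 95 (0.778%) below. The median difference over all kept genes was 0.05. Low genes differed more often upward: between 1 and 5 FPKM, 10.5% were at least 2-fold higher and 5.27% lower, against 5.21% and 4.52% at 100 FPKM or more.

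**Figure D1:**
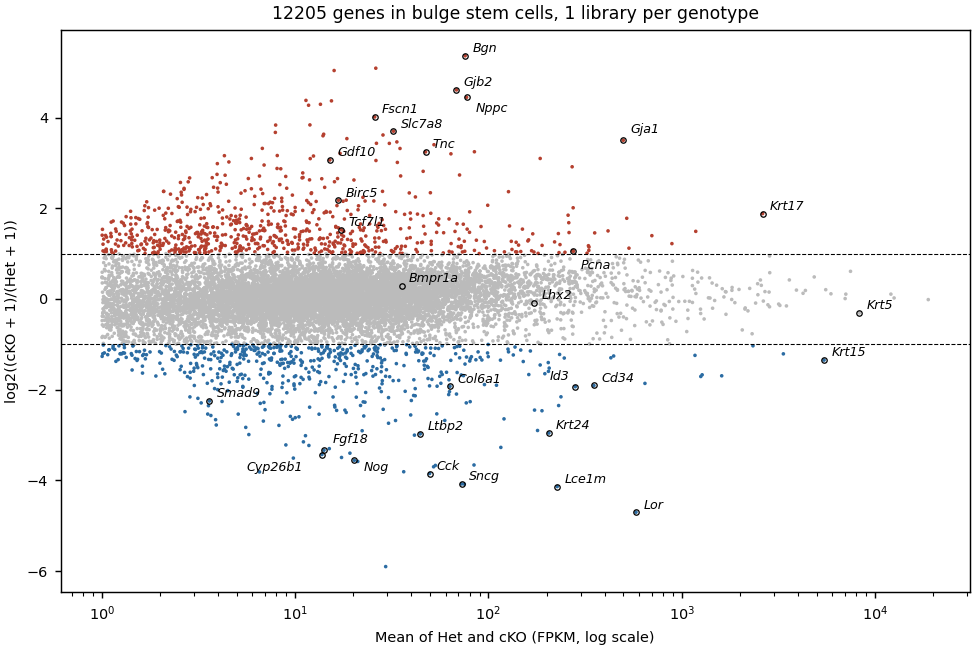
Each point is 1 of the 12205 kept genes, with the mean of both libraries in FPKM on a log axis against log2((cKO + 1)/(Het + 1)); dashed lines mark 2-fold differences, and red and blue points lie beyond them. Bgn lies highest among the labelled genes at 5.36 and Lor lowest at -4.70, while Bmpr1a and Lhx2 lie near 0.

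The libraries also differed in ways that the genotype label does not name. Xist, the RNA that coats the inactive X chromosome of female cells, was at 68.9 and 3.98 FPKM, and the Y-linked Eif2s3y at 0.551 and 51.7 FPKM, so the sex of the animals behind the libraries differed at least in part and cannot be told apart from genotype. The 354 kept X-linked genes had a median of 0.09, with 14 at least 2-fold above Het and 10 below. Leaving out X and Y, 704 genes stood at least 2-fold above Het and 552 below. Ss18 (58.8 and 0 FPKM), Gtpbp5 (13.1 and 0 FPKM) and Ube2h (0 and 31.8 FPKM) were each listed at 0 in 1 library and above 5 FPKM in the other. Such a 0 can be a failed estimate, so no fold is given for these 3 genes.

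The cell type label was checked against markers. Het cells had the bulge markers Krt15 at 7834 FPKM, Cd34 at 556 FPKM and Lhx2 at 177 FPKM, and the basal keratinocyte genes Krt5 (9195 and 7416 FPKM) and Krt14 (4045 and 5659 FPKM) were high in both libraries. Summed over each list of other cell types, endothelial markers came to 0.426 and 0.806 FPKM and erythroid markers to 0.272 and 0.818 FPKM. Markers of suprabasal epidermis summed to 14226 FPKM in Het and 5859.65 FPKM in cKO, those of sebaceous gland to 599 and 248 FPKM, and those of Langerhans cells and MHC class II to 469 and 334 FPKM. All 3 were higher in Het. Markers of isthmus and infundibulum went the other way, at 960 and 1267 FPKM, with all 6 kept members above 0 and a median of 0.25. Melanocyte markers summed to 31.9 and 45.0 FPKM, and smooth muscle markers to 3.32 and 48.3 FPKM. Most of the melanocyte sum in Het came from Mitf (26.2 and 6.06 FPKM), which is also made outside pigment cells. The other 4 kept melanocyte markers were at least 2-fold higher in cKO. In bulk RNA, fewer cells of a type and less RNA per cell cannot be told apart, and the part of these cells in the differences below was not tested. Leaving out all genes of these marker lists, 710 stood at least 2-fold above Het and 539 below.

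Among BMP receptors, none of 6 kept members differed 2-fold. Bmpr1a was at 31.8 and 39.3 FPKM (0.29), which counts the gene as a whole and so cannot show whether its floxed exon was cut out. The type I receptor Acvr1 was at 10.7 and 16.8 FPKM (0.60), while the activin receptor Acvr2b was at 2.25 and 0.955 FPKM (-0.73). The type II receptors Bmpr2 (15.4 and 16.2 FPKM) and Acvr2a (18.3 and 22.99 FPKM) and Acvrl1 (7.88 and 5.42 FPKM), a type I receptor best known from endothelium, lay between them. The receptor genes were thus at similar levels in both libraries.

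The Smad genes were close together with a single exception. Smad1 (21.1 and 36.7 FPKM) and Smad5 (25.05 and 31.3 FPKM), the transducers of BMP receptors, and their partner Smad4 (26.7 and 32.7 FPKM) were slightly higher in cKO, as were Smad2 (20.8 and 26.03 FPKM) and Smad3 (5.16 and 7.66 FPKM) of the TGF-beta branch. Smad9, the third BMP transducer and itself a known BMP-responsive gene, was at 6.61 and 0.597 FPKM (-2.25). It was the only member of the list to differ 2-fold. Smad9 was under 1 FPKM in cKO and kept only through Het, so it had to be lower in cKO. The inhibitory Smads were both lower in cKO: Smad7, which blocks receptors of the whole family, at 10.4 and 4.38 FPKM (-1.08), and Smad6, which blocks BMP receptors, at 6.20 and 3.30 FPKM (-0.74).

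Of 6 kept BMP ligand genes, 1 was at least 2-fold higher and none lower, beside 5.92% and 4.60% of all kept genes. Gdf10, a divergent member of the family also called Bmp3b, was at 2.44 and 27.8 FPKM (3.06). Bmp7 was at 24.6 and 46.5 FPKM (0.89). Bmp2 (13.02 and 9.61 FPKM) and Bmp4 (5.01 and 3.42 FPKM), ligands of Bmpr1a, were somewhat lower, and Bmp6 (2.76 and 3.50 FPKM) and Bmp3 (1.68 and 1.26 FPKM) were low in both libraries. The higher total of ligand transcripts in cKO, 92.5 FPKM against 49.8 FPKM, rested mostly on Gdf10 and Bmp7.

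Extracellular antagonists were split. Nog, a secreted protein that binds BMPs away from receptors, had the largest difference of the list at 38.2 and 2.32 FPKM (-3.56), and Grem1, another ligand trap, was at 151 and 39.99 FPKM (-1.89). The trap Nbl1 was at 258 and 154 FPKM (-0.74), and Fstl3 at 26.8 and 16.9 FPKM (-0.63). In the other direction, the follistatin-like Fstl1 was at 7.95 and 25.5 FPKM (1.57) and Twsg1 at 44.8 and 63.6 FPKM (0.50). Sostdc1 (125 and 146 FPKM), Fst (167 and 131 FPKM), the pseudoreceptor Bambi (5.35 and 4.26 FPKM) and the ubiquitin ligases Smurf1 (14.2 and 14.7 FPKM) and Smurf2 (17.9 and 18.8 FPKM) differed little. In all, 1 of 13 kept members was at least 2-fold higher and 3 lower, with a list median of -0.34. Of all kept genes, 5.92% were higher and 4.60% lower.

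BMP target genes were lower as a group, with 8 of 15 kept members at least 2-fold lower, 1 higher and a median of -1.05; across all kept genes 4.60% were lower. Id1 was at 297 and 111 FPKM, Id2 at 247 and 76.96 FPKM and Id3 at 447 and 116 FPKM. These Id proteins block DNA binding by basic helix-loop-helix factors. Id4, the remaining family member, went the other way at 41.9 and 118 FPKM (1.47). The homeobox genes Dlx3 (10.2 and 3.77 FPKM, log2 difference -1.23) and Dlx5 (7.12 and 2.08 FPKM, log2 difference -1.40) and the helix-loop-helix gene Atoh8 (2.70 and 0.590 FPKM, log2 difference -1.22) were lower. Msx2 was at 6.83 and 2.78 FPKM (-1.05) and Msx1 at 1.86 and 0.996 FPKM (-0.52). Atoh8, which is 1 of the 8 lower members, and Msx1 were under 1 FPKM in cKO. Both were kept only through Het and so had to be lower in cKO. Gata3 (48.5 and 46.4 FPKM), Hey1 (1.13 and 1.29 FPKM) and Dlx2 (1.61 and 2.47 FPKM) stayed within 2-fold.

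**Figure D2:**
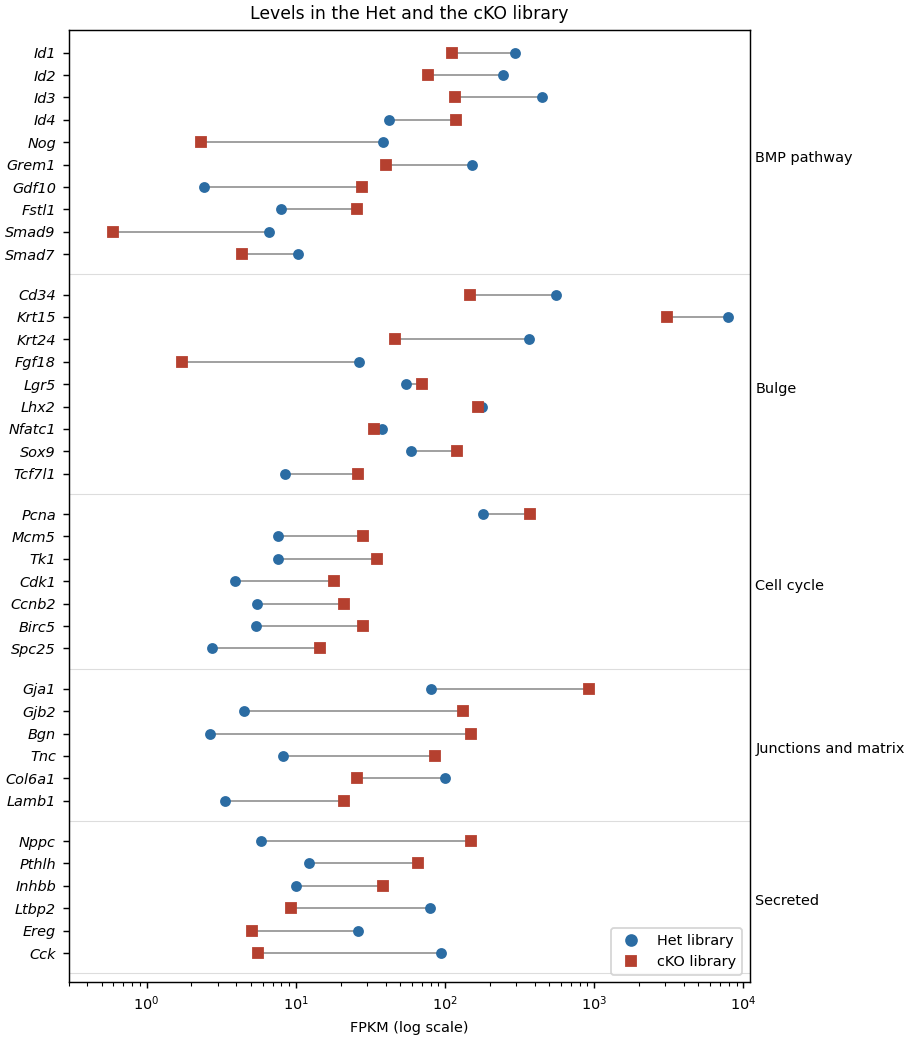
Levels of 38 genes in the Het library (blue circles) and the cKO library (red squares) in FPKM on a log axis, grouped by role. Id1, Id2, Id3, Nog, Cd34 and Fgf18 lie to the left in cKO, while Gdf10, Bgn, Gja1, Nppc and the cell cycle genes lie to the right.

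The promoter of Id2 is shown because GC-rich runs of the form GGCGCC are known as sites that BMP Smads can bind. It was taken from the RefSeq promoter table of build GRCm38.p6, which spans 250 bases before to 50 bases after the start. The GGCGCC match is in capitals, and the window is chr12:25096043-25096342 on the minus strand.
Id2: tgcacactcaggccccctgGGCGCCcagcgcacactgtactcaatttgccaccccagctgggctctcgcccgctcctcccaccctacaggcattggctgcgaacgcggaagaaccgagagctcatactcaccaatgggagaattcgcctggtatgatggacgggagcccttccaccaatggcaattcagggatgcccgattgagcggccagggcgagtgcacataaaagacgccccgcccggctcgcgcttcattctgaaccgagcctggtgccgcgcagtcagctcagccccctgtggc
Of 19 listed BMP target genes 11 had an entry, with 12 promoters, and 5 (41.7%) held GGCGCC on either strand, against 11.9% of all 32851 promoters of 27025 symbols. The cell cycle lists described below held GGCGCC too. It was found in 17 of 60 mitotic promoters (28.3%) and 5 of 25 replication promoters. Kinesin and spindle genes, which are part of the mitotic lists, had it in 10 of 22 promoters (45.5%). The share in BMP target genes was therefore not particular to them. A match is a description of the letters and not a site.

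Transcripts of 4 related ligands of the TGF-beta and activin branch were higher. Inhbb, a subunit of activin B, was at 10.05 and 38.6 FPKM (1.84), Tgfb3 at 8.86 and 24.4 FPKM (1.37) and Tgfb1 at 11.2 and 23.7 FPKM (1.02). Tgfb2, known from the dermal papilla as a signal to the hair germ, was low in both libraries at 1.65 and 4.38 FPKM (1.02). The receptors Tgfbr1 (10.8 and 9.82 FPKM) and Tgfbr2 (16.3 and 15.2 FPKM) were near equal. Ltbp2, a matrix protein of the latent TGF-beta binding family, was far lower in cKO at 79.6 and 9.23 FPKM (-2.98), while Ltbp4 was at 92.9 and 153 FPKM (0.72). Of the 11 kept members of this list, 4 were at least 2-fold higher and 1 lower, beside 5.92% and 4.60% of all kept genes.

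Surface and secreted markers of the bulge were at least 2-fold lower in 7 of 23 kept members and higher in 2, with a median of -0.34. Of all kept genes 4.60% were lower and 5.92% higher. Krt15, the keratin whose promoter drives the Cre, was at 7834 and 3075 FPKM (-1.35). Cd34, the sialomucin used to sort bulge cells, was at 556 and 147 FPKM (-1.91), and the keratin gene Krt24 at 365 and 46.1 FPKM (-2.96). Fgf18, a growth factor that keeps follicles in rest, was at 26.5 and 1.72 FPKM (-3.34). These 4 were all lower, yet Cd34 and Krt15 stayed among the well expressed genes of the cKO library. S100a4, a calcium-binding protein, was at 1924 and 587 FPKM (-1.71) and Angptl7 at 321 and 57.3 FPKM (-2.47). Other markers held their level: Lgr5, a receptor for R-spondins, was at 55.2 and 70.3 FPKM, the laminin receptor subunit Itga6 at 74.99 and 87.8 FPKM and Cd200 at 73.04 and 57.5 FPKM. Sfrp1, a secreted Wnt inhibitor, was higher at 82.02 and 196 FPKM (1.25).

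Of 20 kept transcription factors of the bulge, none was at least 2-fold lower and 3 were higher, beside 4.60% and 5.92% of all kept genes, and the median was 0.25. Whether they differ from the surface markers was not tested. Tcf7l1, also called Tcf3, a repressor of Wnt targets in the bulge, was at 8.47 and 26.2 FPKM (1.52). Sox9, which specifies the outer root sheath and bulge, was at 59.4 and 119.8 FPKM (1.00), just past 2-fold and short of it after median scaling, and Tcf7l2, a relative of Tcf7l1, at 9.33 and 19.6 FPKM (1.00), just under it. Lhx2 (177 and 167 FPKM) and Nfatc1 (37.98 and 33.4 FPKM), regulators of stem cell maintenance and quiescence, were near equal. Foxi3, known from the hair germ, was at 0.511 and 6.45 FPKM (2.30) and was kept only through cKO. Hopx was at 253 and 155 FPKM (-0.70) and Foxp1 at 23.02 and 14.1 FPKM (-0.67), both lower by less than 2-fold.

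Genes of the hair germ and matrix were mixed. In cKO, 3 of the 16 that were kept rose above Het by 2-fold or more, and 3 fell below it by as much. Among all kept genes, 5.92% were this much higher and 4.60% this much lower. The 3 lower genes were Sp6, Msx2 and Dlx3. Msx2 and Dlx3 were already counted among the lower BMP target genes above. Cdh3, P-cadherin of the germ, was at 47.8 and 98.97 FPKM (1.04) and the protease gene Ctsc at 7.55 and 24.9 FPKM (1.60). Sp6, a zinc finger factor of skin appendages, was at 13.8 and 3.54 FPKM (-1.70). Lef1, the Wnt effector of the matrix, was low in both libraries at 0.813 and 1.66 FPKM, and the Wnt feedback gene Axin2 was at 16.4 and 8.72 FPKM (-0.84). Hoxc13 was at 9.95 and 28.7 FPKM (1.44). In the same cluster Hoxc5 was at 2.01 and 5.16 FPKM (1.03), while Hoxc4 (2.06 and 2.35 FPKM), Hoxc6 (14.9 and 17.4 FPKM) and Hoxc8 were within 2-fold. Hoxa7 was at 24.6 and 8.50 FPKM (-1.43) and Hoxd4 at 5.02 and 1.18 FPKM (-1.46).

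Cell cycle genes were higher in cKO as a block. Over 7 lists with 132 kept members, 80 were at least 2-fold higher, none lower, and 130 lay above 0, with a median of 1.13. Under 1 FPKM in Het were 3 members of the replication list, 6 of the DNA repair list and 1 of the mitotic kinase list. These were kept only through cKO and so had to be higher there. The 64 mitotic members had a median of 1.43, with 54 at least 2-fold higher. The 68 members of replication, nucleotide synthesis, repair and chromatin lists had a median of 0.87, with 26 at least 2-fold higher. Without a test, these shares are read only beside the 5.92% of all kept genes.

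By role, the difference was uneven. The cyclin-dependent kinase Cdk1 was at 3.91 and 17.99 FPKM and its partner cyclin Ccnb2 at 5.48 and 21.04 FPKM. Pbk, a mitotic kinase, had the largest difference of its list at 3.75 and 19.7 FPKM (2.12). Birc5, the survivin subunit of the chromosomal passenger complex, was at 5.44 and 28.1 FPKM (2.18), and Spc25 and Spc24 of the kinetochore at 2.76 and 14.4 FPKM and 2.38 and 12.7 FPKM. The condensin subunit Ncapg was at 1.86 and 8.10 FPKM (1.67) and the topoisomerase Top2a at 10.01 and 33.6 FPKM (1.65). Some mitotic genes hardly differed, among them Ttk (7.29 and 7.67 FPKM) and Pttg1 (14.6 and 18.04 FPKM), and the phosphatase Cdc25b was lower at 30.9 and 18.7 FPKM (-0.69).

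For DNA synthesis, thymidine kinase Tk1 was at 7.65 and 34.9 FPKM (2.05) and the ribonucleotide reductase subunit Rrm1 at 14.9 and 36.9 FPKM (1.25). Helicase subunits Mcm5 (7.65 and 28.3 FPKM), Mcm6 (12.4 and 34.03 FPKM) and Mcm2 (7.86 and 21.5 FPKM) and the sliding clamp Pcna (179 and 372 FPKM) were all higher. The enzymes of purine synthesis were nearer to equal, with Gart at 16.5 and 23.2 FPKM, Paics at 101 and 136 FPKM and Atic at 44.9 and 42.4 FPKM. Rad18, a ubiquitin ligase of DNA repair, was at 2.17 and 6.24 FPKM (1.19). Asf1b, a histone chaperone, was at 2.88 and 11.7 FPKM (1.71), while the maintenance methyltransferase Dnmt1 was at 16.1 and 21.02 FPKM (0.37). A set named after values were seen holds the 28 kept genes with symbols of the Hist families. Of these, 16 were at least 2-fold higher and none lower, with a median of 1.12, beside 5.92% and 4.60% of all kept genes. Hist1h2bc was at 24.6 and 86.1 FPKM (1.77) and Hist3h2a at 10.7 and 10.2 FPKM (-0.07); near-identical copies can share reads.

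Of 12 kept E2F, Myb and Fox regulators, 3 were at least 2-fold higher and none lower, beside 5.92% and 4.60% of all kept genes. Of the 12, 2 were under 1 FPKM in Het, Mybl2 among them, and so had to be higher in cKO to be kept. E2f1, an activator of replication genes, was at 2.41 and 7.41 FPKM (1.30), and Foxm1 and Mybl2, activators of mitotic genes, at 2.16 and 6.04 FPKM and 0.9005 and 3.84 FPKM. Cyclin E2 (Ccne2) was at 1.86 and 6.01 FPKM (1.29) and Cdk4 at 91.7 and 189 FPKM (1.04), while cyclin D1 (Ccnd1) was at 23.3 and 32.6 FPKM (0.47). The pocket protein Rbl2, linked to quiescence, was at 17.7 and 13.4 FPKM (-0.38). Among inhibitors, Cdkn1c was at 8.81 and 1.90 FPKM (-1.76) and Cdkn1b at 65.4 and 69.98 FPKM (0.10).

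Promoters of these genes are shown because 2 sequence elements are known to time their expression: the cell cycle homology element, searched as TTTGAA, with CCAAT boxes for mitotic genes, and E2F sites, searched as TTTGGCGC or TTTCGCGC, for replication genes. Both strands were searched in the same RefSeq windows of build GRCm38.p6. Shown are the mitotic genes with the 4 largest differences among those with both elements (Spc25, Cdk1, Ckap2 and Ccnb2; capitals mark TTTGAA matches, boxes of CCAAT, and the reverse complements of both) and the 2 replication genes with the largest differences among those with an E2F match (Mcm5 and Mcm6; capitals mark these matches, which may overlap). Spc25 spans chr2:69206164-69206463 (minus strand), Cdk1 chr10:69352863-69353162 (minus strand), Ckap2 chr8:22185770-22186069 (minus strand) and Ccnb2 chr9:70421505-70421804 (minus strand). Mcm5 spans chr8:75109259-75109558 (plus strand) and Mcm6 chr1:128359656-128359955 (minus strand).
Spc25: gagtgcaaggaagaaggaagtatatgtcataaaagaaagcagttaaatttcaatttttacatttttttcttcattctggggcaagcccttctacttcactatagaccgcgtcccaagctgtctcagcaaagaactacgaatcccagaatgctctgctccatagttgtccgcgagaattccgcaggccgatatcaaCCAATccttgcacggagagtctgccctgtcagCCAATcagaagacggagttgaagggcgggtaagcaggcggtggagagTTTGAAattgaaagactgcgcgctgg
Cdk1: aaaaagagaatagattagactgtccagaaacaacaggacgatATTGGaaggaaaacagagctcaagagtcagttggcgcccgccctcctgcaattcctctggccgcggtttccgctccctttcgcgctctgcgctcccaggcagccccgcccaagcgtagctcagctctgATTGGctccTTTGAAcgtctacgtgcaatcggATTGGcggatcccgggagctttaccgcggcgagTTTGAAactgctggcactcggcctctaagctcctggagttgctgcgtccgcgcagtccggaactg
Ckap2: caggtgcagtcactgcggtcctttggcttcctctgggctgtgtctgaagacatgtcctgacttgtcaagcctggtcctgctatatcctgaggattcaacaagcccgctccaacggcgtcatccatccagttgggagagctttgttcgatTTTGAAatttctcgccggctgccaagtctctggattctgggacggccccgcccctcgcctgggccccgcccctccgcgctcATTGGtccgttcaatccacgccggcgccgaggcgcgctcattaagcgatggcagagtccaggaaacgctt
Ccnb2: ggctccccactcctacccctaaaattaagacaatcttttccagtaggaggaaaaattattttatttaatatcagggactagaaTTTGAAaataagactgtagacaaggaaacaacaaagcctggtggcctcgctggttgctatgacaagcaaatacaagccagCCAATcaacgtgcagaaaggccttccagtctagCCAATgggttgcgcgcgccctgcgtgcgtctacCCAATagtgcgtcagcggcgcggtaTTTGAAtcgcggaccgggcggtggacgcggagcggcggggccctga
Mcm5: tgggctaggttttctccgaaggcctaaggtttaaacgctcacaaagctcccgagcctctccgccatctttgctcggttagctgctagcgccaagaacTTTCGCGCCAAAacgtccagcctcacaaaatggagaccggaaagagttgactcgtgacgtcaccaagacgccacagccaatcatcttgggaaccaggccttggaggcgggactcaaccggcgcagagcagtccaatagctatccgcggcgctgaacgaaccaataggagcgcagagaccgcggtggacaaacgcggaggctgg
Mcm6: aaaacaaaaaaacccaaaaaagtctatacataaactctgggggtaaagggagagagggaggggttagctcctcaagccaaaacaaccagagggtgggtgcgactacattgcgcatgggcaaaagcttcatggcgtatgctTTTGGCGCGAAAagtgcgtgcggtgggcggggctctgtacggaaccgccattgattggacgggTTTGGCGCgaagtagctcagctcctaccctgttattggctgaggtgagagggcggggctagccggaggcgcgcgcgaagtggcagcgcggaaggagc
Ckap2, a spindle protein, was at 3.17 and 15.1 FPKM (1.95).

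In the 60 promoters of the 56 mitotic genes that matched (of 65 listed), TTTGAA stood in 38 (63.3%), CCAAT in 44 (73.3%) and both in 32 (53.3%). Over all 32851 promoters the shares were 17.9%, 37.4% and 6.95%. Kinesin and spindle genes had TTTGAA in 19 of 22 promoters (86.4%). The 25 promoters of 21 replication genes held an E2F match in 9 (36.0%), against 0.813% of all promoters, and TTTGAA in 4. The middle TTTGAA match of the mitotic promoters lay 7 bases before the start and the middle CCAAT match 65 bases before it. The lists were chosen for their role in the cycle, so these shares describe the genes and say nothing of which factor was active in either library.

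**Figure D3:**
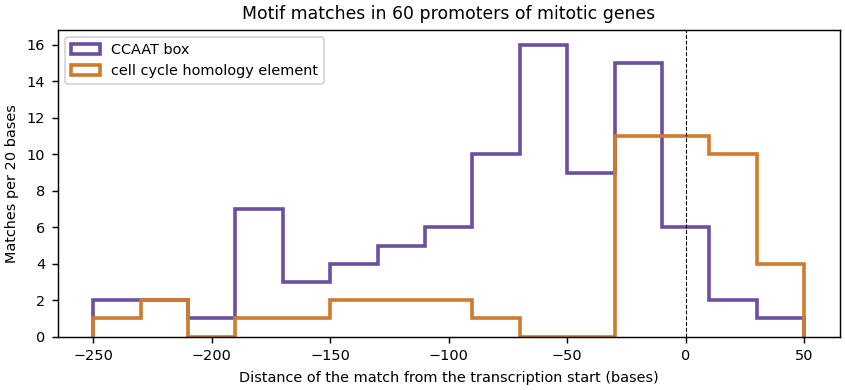
Matches of CCAAT (purple) and of the cell cycle homology element (orange) on either strand in 60 promoters of mitotic genes, counted in windows of 20 bases against the distance from the transcription start. CCAAT matches centre 65 bases before the start and the cell cycle homology matches 7 bases before it.

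**Figure D4:**
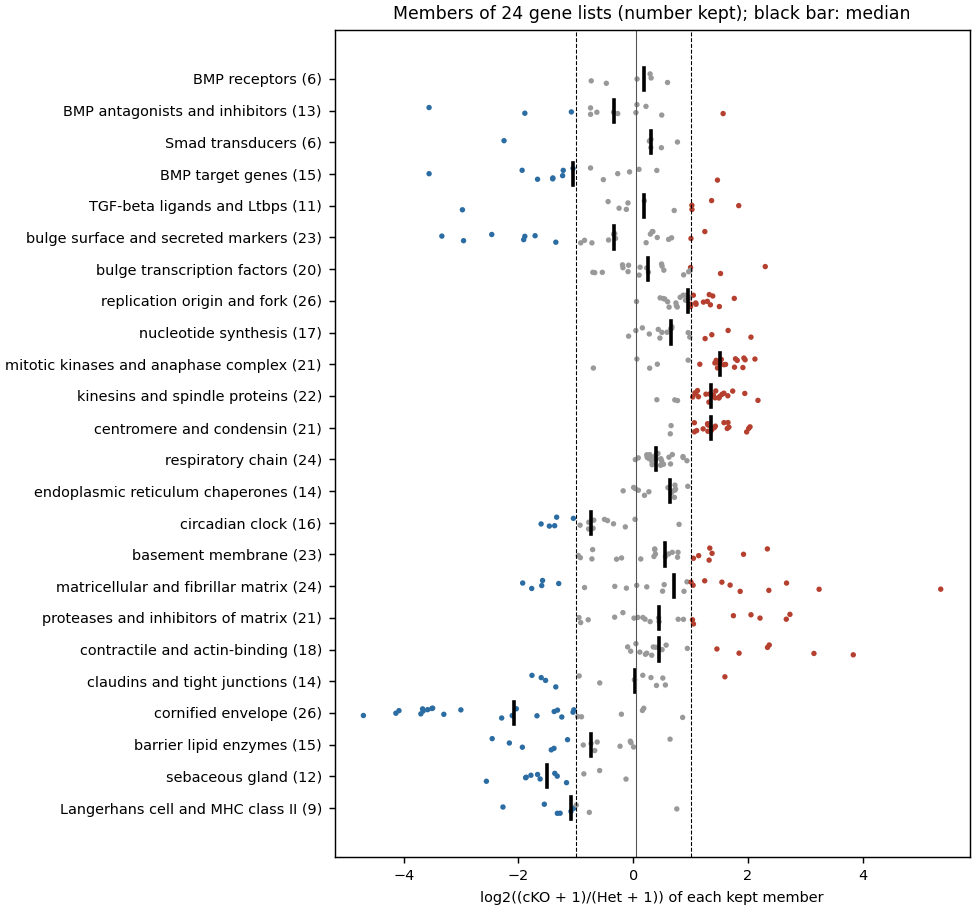
Each point is a kept member of 1 of 24 gene lists at its log2((cKO + 1)/(Het + 1)); black bars are list medians, dashed lines 2-fold differences, and the thin line the median of all kept genes. Mitotic lists lie to the right with medians of 1.36 to 1.51, and cornified envelope genes to the left with a median of -2.07.

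Gap junction genes held some of the largest upward differences, while other members were lower by less. Gja1, which encodes connexin 43, was at 80.3 and 918 FPKM (3.50). The connexins Gjb2 (connexin 26) and Gjb6 (connexin 30) were at 4.46 and 132 FPKM and 1.25 and 26.9 FPKM. Gjb5 and Panx3, a pannexin, went the other way, at 64.3 and 27.4 FPKM (-1.20) and 6.55 and 1.59 FPKM (-1.54). Of 8 kept genes 3 were higher and 3 lower by at least 2-fold, beside 5.92% and 4.60% of all kept genes. At 4-fold, 3 were higher and 0 lower.

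Of 14 kept claudin and tight junction genes, 4 stood at least 2-fold below Het and 1 above, beside 4.60% and 5.92% of all kept genes, with a median of 0.02. The lower ones were Cldn23 at 18.9 and 4.85 FPKM (-1.76), Tjp3 at 20.2 and 5.98 FPKM (-1.60), Cldn3 at 4.94 and 1.06 FPKM (-1.53) and cingulin (Cgn) at 15.8 and 5.58 FPKM (-1.35). Cldn10, kept only through cKO, was at 0.867 and 4.65 FPKM (1.60). Tjp1 (14.1 and 14.3 FPKM), Ocln (12.4 and 12.6 FPKM) and Cldn1 (103 and 148 FPKM) were within 2-fold. Of the desmosomal cadherins, Dsg2 was higher at 11.6 and 28.2 FPKM (1.21) and Dsc1, a cadherin of upper layers, lower at 68.5 and 25.98 FPKM (-1.36). Beta-catenin (Ctnnb1) was at 267 and 479 FPKM (0.84).

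Genes of the extracellular matrix differed in both directions. Bgn, a small proteoglycan of connective tissue, had the highest difference of all kept genes at 2.65 and 149 FPKM (5.36). It is X-linked, and the sex of the animals differed between the libraries as given above. Tenascin C (Tnc) was at 8.23 and 86.3 FPKM (3.24), Smoc2 at 40.6 and 213 FPKM (2.37) and Matn2 at 15.3 and 58.4 FPKM (1.87). Col6a1 and Col6a2, 2 chains of collagen VI, were lower together, at 101 and 25.8 FPKM (-1.93) and 37.8 and 11.97 FPKM (-1.58). Fmod was at 9.45 and 2.06 FPKM (-1.77) and Col1a2 at 7.10 and 1.68 FPKM (-1.59). Over the 24 kept members of this list, 10 were at least 2-fold higher and 5 lower, beside 5.92% and 4.60% of all kept genes. Of the 24, 3 were under 1 FPKM in Het, Dcn and Col1a1 among them, and so had to be higher in cKO to be kept. Of the fibroblast markers, Dcn was at 0.342 and 1.77 FPKM, Col1a1 at 0.637 and 2.03 FPKM, Thy1 at 11.6 and 9.33 FPKM and Fbln1 at 43.4 and 63.6 FPKM. Together the fibroblast markers came to 63.4 and 79.3 FPKM, and the part of such cells in these values was not tested.

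In the basement membrane list 7 of 23 kept members were at least 2-fold higher and none lower, beside 5.92% and 4.60% of all kept genes; 3 members were kept only through cKO and so had to be higher there. Laminin beta 1 (Lamb1) was at 3.34 and 20.98 FPKM (2.34), perlecan (Hspg2) at 7.21 and 19.7 FPKM (1.34) and Frem2, which links epithelium to dermis, at 3.34 and 9.87 FPKM (1.32). The collagen IV chain Col4a5 was at 9.44 and 20.6 FPKM (1.05). The laminin chains Lama3 and Lamb3 stayed within 2-fold, at 31.2 and 40.4 FPKM and 239 and 123 FPKM. Col17a1, a collagen of hemidesmosomes that follicle stem cells need, was at 1322 and 803 FPKM (-0.72) and Itgb4 at 129 and 83.8 FPKM (-0.61). Itgb6, an integrin that releases TGF-beta, was at 10.9 and 24.5 FPKM (1.10).

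Of 21 kept matrix proteases and their inhibitors, 7 were at least 2-fold higher and none lower, beside 5.92% and 4.60% of all kept genes. Of the 21, 4 were under 1 FPKM in Het and so had to be higher in cKO to be kept. Timp3, an inhibitor of metalloproteinases, was at 17.8 and 124 FPKM (2.73). Mmp2, a gelatinase, was at 12.4 and 43.98 FPKM (1.75) and Adamts1 at 48.8 and 102 FPKM (1.05).

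Of 18 kept contractile and actin-binding genes, 6 were at least 2-fold higher and none lower, beside 5.92% and 4.60% of all kept genes. Of the 18, 2 were kept only through cKO, Acta2 among them. Tropomyosin 1 (Tpm1) was at 112 and 405 FPKM (1.85), caldesmon (Cald1) at 15.8 and 84.4 FPKM (2.34) and Myl9 at 8.49 and 48.1 FPKM (2.37). Acta2 (0.691 and 23.2 FPKM) and Tagln (1.72 and 23.2 FPKM), shared with smooth muscle, were higher too, while Myh11 (0.0490 and 0.0892 FPKM), Actg2 (0.0138 and 0.0483 FPKM) and Des (0.0502 and 0 FPKM), defining genes of smooth muscle, were at or near 0 in both libraries. Fscn1, an actin bundler, was at 2.13 and 49.5 FPKM (4.01).

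Secreted peptides showed some of the steepest differences. Nppc, the precursor of C-type natriuretic peptide, was at 5.85 and 148 FPKM (4.45), while its receptor Npr2 was low at 2.63 and 2.88 FPKM. Pthlh, parathyroid hormone-related protein, was at 12.2 and 65.7 FPKM (2.34), Edn2 at 3.36 and 16.6 FPKM (2.02) and Edn1 at 1.18 and 5.02 FPKM (1.46). Cholecystokinin (Cck) was lower at 93.7 and 5.57 FPKM (-3.85), as was gamma-synuclein (Sncg), a neuronal protein, at 138 and 7.23 FPKM (-4.08). Npy was listed at 0 in Het and at 2.82 FPKM in cKO.

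EGF family ligands were split by member. Nrg1, a ligand of Erbb3, was at 0.170 and 4.98 FPKM (2.35) and was kept only through cKO. Hbegf was at 54.3 and 115 FPKM (1.07), whereas Ereg and Btc were lower at 26.3 and 5.10 FPKM (-2.16) and 15.2 and 2.87 FPKM (-2.07). Lrig1, an inhibitor of ErbB receptors that marks isthmus stem cells, was at 49.8 and 124 FPKM (1.29). The receptors Egfr (48.5 and 55.1 FPKM), Erbb2 (35.5 and 27.7 FPKM) and Erbb3 (26.1 and 19.6 FPKM) were near equal.

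Among Wnt ligands, Wnt5b was at 3.43 and 12.9 FPKM (1.65), Wnt9a at 1.05 and 4.33 FPKM (1.38) and Wnt6 at 2.10 and 5.65 FPKM (1.10), all from low levels. Wnt3 was lower at 24.6 and 9.31 FPKM (-1.31). Wnt4 (38.4 and 24.5 FPKM), Wnt7b (25.5 and 19.7 FPKM) and Wnt10a (21.5 and 28.8 FPKM) stayed within 2-fold. Dusp6, a feedback phosphatase of FGF and ERK signalling, was at 63.01 and 194 FPKM (1.61), while Spry1, another feedback gene, was at 42.5 and 21.1 FPKM (-0.98). In the hedgehog pathway, the target and effector Gli1 was at 13.3 and 23.1 FPKM (0.75). The co-receptor Cdon was at 20.1 and 7.49 FPKM (-1.31). Plxna2, a semaphorin co-receptor, was at 34.5 and 6.91 FPKM (-2.17), and netrin 4 (Ntn4) at 8.03 and 34.3 FPKM (1.97).

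Among chemokines and cytokines, Ccl2 was at 2.63 and 16.7 FPKM (2.29) and Cxcl10 at 1.93 and 9.23 FPKM (1.80). Il18 was lower at 21.6 and 5.10 FPKM (-1.89) and Il34, a growth factor for Langerhans cells, at 41.01 and 15.3 FPKM (-1.36). Genes of Langerhans cells and MHC class II were lower in the same library, among them H2-Eb1 at 37.9 and 7.07 FPKM (-2.27). Of 9 kept members 6 were at least 2-fold lower, beside 4.60% of all kept genes. The part of Langerhans cells in these values was not tested.

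All 24 kept genes of the respiratory chain lay above 0, beside 6620 of all 12205, with a median of 0.40, and none differed 2-fold. Median scaling lowers each log2 ratio by about 0.05, which takes Uqcrc1 (195 and 199.9 FPKM, log2 difference 0.04) below 0. Endoplasmic reticulum chaperones had a median of 0.63, with Hspa5 at 244 and 391 FPKM and Pdia3 at 155 and 301 FPKM. Glycolytic genes included Eno1 at 87.1 and 199 FPKM (1.19) and Pgk1 at 206 and 457 FPKM (1.14). Angptl4, an inhibitor of lipoprotein lipase, was at 8.22 and 96.4 FPKM (3.40).

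Lipid genes were split by enzyme. Of 16 kept genes of fatty acid synthesis and desaturation, 3 were at least 2-fold higher and 4 lower. Across all kept genes the shares were 5.92% and 4.60%. Most of the list, 12 members, lay below 0, with a median of -0.74. Fads2, a desaturase of polyunsaturated fatty acids, was at 0.451 and 5.82 FPKM (2.23), Fads1 at 8.24 and 20.4 FPKM (1.21) and Scd2 at 17.5 and 61.7 FPKM (1.76). Scd1, a stearoyl desaturase, was lower at 272 and 98.5 FPKM (-1.46), and the elongases Elovl4 and Elovl1 at 219 and 83.6 FPKM (-1.38) and 189 and 79.8 FPKM (-1.24). Elovl3 and Scd3, which are sebaceous gland genes, were lower beside them, with Scd3 at 68.5 and 10.8 FPKM (-2.56). Retinoid genes had the same pattern of opposite members. Cyp26b1, which degrades retinoic acid, was at 26.03 and 1.51 FPKM (-3.43), and Dhrs9, an enzyme that makes retinaldehyde, at 1.72 and 22.2 FPKM (3.09). The synthesis gene Aldh1a2 was at 0.333 and 3.95 FPKM (1.89). Fads2 and Aldh1a2 were under 1 FPKM in Het and kept only through cKO, so they had to be higher there.

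Of 15 kept antioxidant genes, 4 were at least 2-fold higher and none lower, beside 5.92% and 4.60% of all kept genes, and 5 lay below 0. Gpx2, a glutathione peroxidase of epithelia, was at 3.45 and 53.5 FPKM (3.61), and both subunits of the enzyme that makes the precursor of glutathione were higher, Gclc at 22.4 and 70.05 FPKM (1.60) and Gclm at 19.5 and 72.4 FPKM (1.84). The quinone reductase Nqo1 was at 15.7 and 34.4 FPKM (1.08), while Hmox1 was at 23.3 and 14.3 FPKM (-0.67) and the glutathione transferase Gsta2 at 16.3 and 7.90 FPKM (-0.96). Carbonic anhydrase 12 (Car12) was at 11.8 and 116 FPKM (3.20), and the sodium pump subunit Atp1b3 at 217 and 615 FPKM. Aqp3, a water and glycerol channel of keratinocytes, was lower at 628 and 262 FPKM (-1.26).

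Of 16 kept circadian genes, 5 were at least 2-fold lower and none higher, beside 4.60% and 5.92% of all kept genes, with a median of -0.74. Dbp was at 42.5 and 13.3 FPKM (-1.61), Tef at 116 and 44.2 FPKM (-1.37) and Nr1d1, which encodes REV-ERB alpha, at 68.8 and 24.3 FPKM (-1.46). Cry2, a repressor of the clock, was at 31.7 and 14.9 FPKM (-1.04). The core activators Clock (13.2 and 13.5 FPKM) and Arntl (20.9 and 18.95 FPKM) were near equal, while Npas2, a relative of Clock, was lower at 5.54 and 1.59 FPKM (-1.33). The labels do not give the hour of collection, so its part in these values was not tested. Several glucocorticoid-responsive genes were lower as well, including Tsc22d3 at 64.6 and 30.1 FPKM (-1.08) and Zbtb16 at 19.7 and 7.13 FPKM (-1.35), while Sgk1 was at 109 and 440.3 FPKM (2.01).

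Immediate early genes, which respond quickly to handling of tissue, were high in both libraries. Fos was at 2291 and 3421 FPKM, Egr1 at 985 and 947 FPKM and Atf3 at 1605 and 1786 FPKM. Of 16 kept members only Fosl1 differed 2-fold, at 54.2 and 18.9 FPKM (-1.47).

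Of 26 kept genes of the cornified envelope, 20 were at least 2-fold lower and none 2-fold higher, with a median of -2.07. In all, 23 lay below 0 and 3 above. Across all kept genes, 4.60% were at least 2-fold lower and 5.92% higher. Of the 26, 3 were under 1 FPKM in cKO and so had to be lower there to be kept. Lor, loricrin, was at 1119 and 41.98 FPKM (-4.70), and the filaggrin relative Flg2 at 74.5 and 8.41 FPKM. All 14 kept genes with Lce symbols, a set named after values were seen, were at least 2-fold lower, from -4.14 in Lce1m up to -1.16. Barrier lipid enzymes were at least 2-fold lower in 6 of 15 kept members and higher by that much in none. Among them, Alox12b was at 28.4 and 4.36 FPKM (-2.46) and Aloxe3 at 12.6 and 2.57 FPKM (-1.93). Not all keratinocyte genes followed: Sprr1a, a cross-linked protein induced by stress, was at 239.7 and 437 FPKM (0.86), and Casp14 at 31.8 and 36.3 FPKM. The epidermal factors Klf4 (504 and 362 FPKM) and Trp63 (186 and 223 FPKM) were within 2-fold, and Ovol1 was at 33.4 and 14.9 FPKM (-1.11). The genes move with the summed markers of suprabasal epidermis given above, which share Lor, Ivl, Sbsn and Krtdap with this list, and the part of such cells in the lists was not tested.

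Of 5 kept melanocyte genes, 4 stood at least 2-fold above Het and 1 below, beside 5.92% and 4.60% of all kept genes. Tyrp1 and Mlana were under 1 FPKM in Het and kept only through cKO, so they had to be higher there. Dct was at 2.59 and 21.2 FPKM, Pmel at 1.62 and 8.24 FPKM and Tyrp1 at 0.483 and 5.03 FPKM, while Mitf, which is also made outside pigment cells, was lower at 26.2 and 6.06 FPKM (-1.95). In all 11 melanocyte genes were in the table. Krt8, a keratin of Merkel cells and simple epithelia, was at 2.12 and 15.97 FPKM (2.44), with the Merkel cell factor Atoh1 listed at 0 in both libraries.

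Further genes among the 25 largest differences each way lay outside these lists. Trf, transferrin, was at 0.517 and 30.3 FPKM (4.37), and Slc7a8, an amino acid transporter, at 3.76 and 60.8 FPKM (3.70). Cmah, an enzyme of sialic acid synthesis, was at 0.410 and 26.6 FPKM (4.29), Fhl2 at 2.10 and 34.9 FPKM (3.54) and Mfap2, a microfibril protein, at 3.64 and 49.1 FPKM (3.43). Krt42 was at 4.76 and 62.4 FPKM (3.46), Scrg1 at 15.3 and 154 FPKM (3.25) and Gnmt, a glycine methyltransferase, at 5.54 and 64.2 FPKM (3.32). Expi (0.136 and 22.6 FPKM), Rnase12 (0.170 and 15.7 FPKM), Fam101a (0.295 and 15.5 FPKM) and Pcp4 (0.414 and 13.1 FPKM) were, like Trf and Cmah, under 1 FPKM in Het and were kept only through cKO. On the lower side, Krtap3-2 was at 22.1 and 1.46 FPKM (-3.23) and the adhesion gene Cadm3 at 16.98 and 0.930 FPKM (-3.22). Ngef was at 20.9 and 1.71 FPKM (-3.02) and Grik1, a glutamate receptor subunit, at 11.01 and 0.511 FPKM (-2.99). Cadm3 and Grik1 were under 1 FPKM in cKO and kept only through Het, so they had to be lower in cKO.

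The bulge values were set beside those of 2 other deletions of Bmpr1a, which share no sample with them. Their tables were normalized separately, so only differences within a table are compared. TACs of Shh-CreER mice at day 68 had 1 Het and 1 cKO library, in which 2.67% of 12296 kept genes stood at least 2-fold above Het and 2.77% below. Hair bulb TACs of K15-CrePGR mice at day 80 had WT samples 52 and 57 and KO samples 64 and 84. There both KO samples lay above both WT samples for 26.8% of 13566 kept loci and below for 27.6%.

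Of the 722 genes higher in bulge cKO cells, 641 were kept in the Shh-CreER table, where 62 (9.67%) were at least 2-fold higher and 46 (7.18%) lower. These were 18.9% of all genes higher there and 13.5% of all genes lower. The K15-CrePGR samples had values for 605 of them, with both KO samples above both WT samples for 282 (46.6%) and below for 138 (22.8%). Of the 562 lower genes, 378 were kept in the Shh-CreER table, with 36 (9.52%) higher and 36 (9.52%) lower. In the K15-CrePGR table, 128 of 320 lower genes (40.0%) lay above and 81 (25.3%) below. Those 320 genes thus lay above WT in the K15-CrePGR KO samples more often than below.

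Id3 was lower in every deletion, at 562 and 221 FPKM in the Shh-CreER libraries (Het and cKO), 573 and 315 FPKM in WT 52 and 57 and 184 and 112 FPKM in KO 64 and 84. Krt15 was at 86.4 and 141 FPKM in the Shh-CreER libraries, 62.5 and 118 FPKM in WT and 246 and 341 FPKM in KO samples, and Cd34 at 22.1 and 23.4, 4.32 and 6.17 and 50.9 and 9.77 FPKM in the same order. Bgn was higher in the K15-CrePGR KO samples too, at 16.7 and 20.5 FPKM in WT and 119 and 74.6 FPKM in KO. Cdk1 was near equal in the Shh-CreER libraries, at 80.9 and 84.2 FPKM, and lower in the KO samples, at 159.8 and 162 FPKM against 208 and 231 FPKM in WT. Gja1 was at 993 and 999.6 FPKM in the Shh-CreER libraries. Whether the deletions differ for any gene was not tested, since 2 of the tables have 1 library per genotype.

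**Figure D5:**
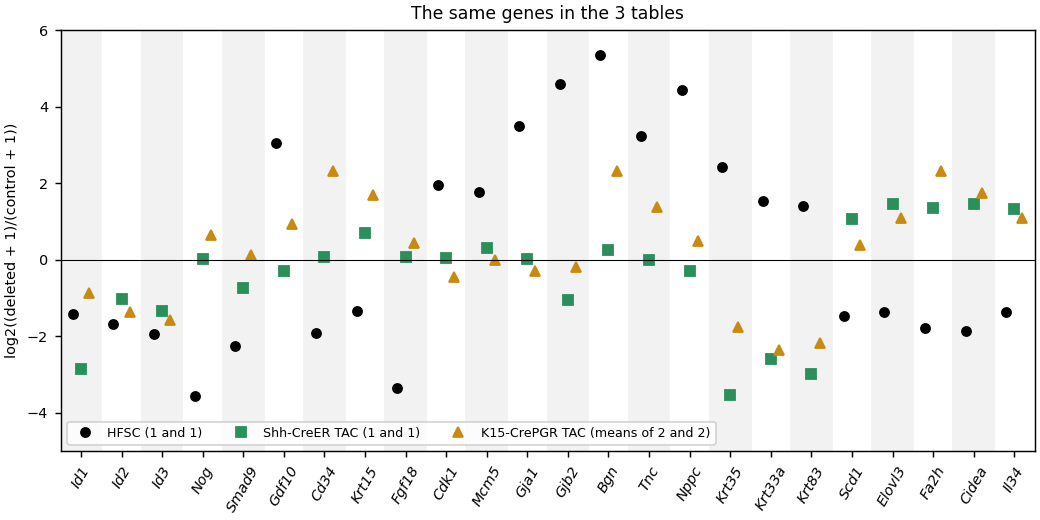
Log2 differences (deleted over control, FPKM + 1) of 24 genes in bulge stem cells (black circles), Shh-CreER TACs (green squares) and K15-CrePGR TACs (orange triangles, from group means). Id1, Id2 and Id3 lie below 0 in all 3 tables, while Krt35, Krt33a and Krt83 lie above 0 in bulge cells and below 0 in both TAC tables.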

How the data were processed

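RNA from 8 libraries of mouse hair follicle cells was sequenced, of which the 2 bulge libraries are the subject. A Zymed kit and a genomics core facility for the library preparation are named, per the labels' protocols. TopHat and Cufflinks with build mm9 were used, per the submitters' processing notes, with no version named. The values the authors deposited are FPKM in a column for each library. FPKM are not counts, and depth was only estimated, from the steps of low values and GENCODE vM21 transcript lengths over 1000 bases. The cKO library had 0.854 times the depth of Het.

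Per symbol the highest-mean row was used, and genes averaging under 1 FPKM were left out. Differences use a pseudocount of 1 FPKM. With 1 library per genotype no test was run, and lists are described by counts and medians beside all kept genes. The members and the 82 gene lists were chosen with earlier results of these data known. Named genes are Bmpr1a and 5 given markers, all kept BMP pathway and target genes, up to 4 or 6 members per other list with the largest difference, and genes among the 25 largest each way. Members named to complete a complex, a family or a contrast were added after their values were seen. A few genes named by the rule are not reported here. The counting of 2-fold genes was tested on simulated tables in which 200 genes had known folds. Alternatives were pseudocounts of 0.1 and 5, other filters, median scaling, quantile normalization and summed rows. Leaving out genes at 0, X and Y genes, or markers of other cells was added after the data were seen. Chromosomes and promoters came from RefSeq (GRCm38.p6). Python 3.11.15, numpy 2.4.6, pandas 2.3.3 and matplotlib 3.10.9 were used.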

Additional observations from a re-analysis of the deposited data

Results flagged for a closer look

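Genes named above were looked at again where the bulge difference was at least 2-fold, the Shh-CreER TAC difference at least 2-fold in the other direction, and both K15-CrePGR KO samples also lay on that other side of both WT samples. The differences between tables were not tested. There were 9 such genes.

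The hair keratin genes Krt35, Krt33a and Krt83 lay higher in bulge cKO cells and lower in both TAC tables. In bulge cells they were under 1 FPKM in Het and kept only through cKO, so they had to be higher there. Of 6 kept hair shaft keratins 5 were of this kind, and the other, Krt32, was at 7.41 and 5.26 FPKM (-0.43). Krt35 was 2.44 in bulge cells, -3.52 in Shh-CreER TACs and -1.74 in K15-CrePGR TACs (log2 differences, in that order below). Krt33a was 1.54, -2.59 and -2.35, and Krt83 was 1.41, -2.98 and -2.18. In bulge cells these 3 stayed under 6 FPKM even in cKO, with Krt35 at 0.141 and 5.18 FPKM, against 3092 and 268 FPKM in the Shh-CreER libraries. The gap junction gene Gjb2 was 4.61, -1.05 and -0.17.

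Sebaceous and lipid genes went the opposite way, lower in bulge cKO cells and higher in both TAC tables. Scd1 was -1.46, 1.05 and 0.38, and Elovl3 was -1.37, 1.47 and 1.09. Cidea, a lipid droplet gene, was -1.87, 1.47 and 1.76, and Fa2h, a fatty acid hydroxylase, was -1.78, 1.36 and 2.32. Il34 was -1.36, 1.32 and 1.09. The summed sebaceous gland markers moved with them in bulge cells, from 599 to 248 FPKM, and their part was not tested.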

How the results depend on the processing

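No paired analysis was possible because each bulge genotype has 1 library and the labels share no replicate number. For the same reason no library could be left out. The counts depended on the pseudocount. With 0.1 in place of 1, 290 genes were at least 4-fold higher in cKO and 175 at least 4-fold lower. With 5, the counts were 302 higher and 278 lower at 2-fold, and 41 higher and 39 lower at 4-fold. A filter of 5 FPKM left 436 genes at least 2-fold higher, out of 9475 tested. The remaining counts stayed within 1.5 times the reported ones. Median scaling gave 655 higher and 622 lower at 2-fold, a shift toward lower calls, and quantile normalization 658 and 629, so the excess of higher over lower genes depends on the scaling. Of the 231 genes that the naming rule takes and that were at least 2-fold apart, 190 stayed so with a pseudocount of 5, and none changed sign under any alternative. The medians of Wnt ligands, BMP ligands and claudins changed sign under both scalings and are near 0. Each difference compares 1 library with 1 other, so animal, sex, preparation and genotype cannot be told apart. Genes with a mean under 1 FPKM were left out, but 320 kept genes were under 1 FPKM in Het and 251 in cKO. Counting error grows at such low levels.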
